A study of Mus musculus with 24 samples.

Results

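The genes described here are 39 genes of blood and lymphatic vessels, named for the endothelium and for angiogenesis, in mouse thyroid glands and thyroid tumours. The list holds endothelial receptors, junction and surface proteins, transcription factors, lymphatic markers, arterial, capillary and tip cell genes, and the angiogenic ligands. For each gene the probe set with the highest mean level was used, and 38 of the 39 had one, out of 12394 genes on the array. Mmrn2 had no probe set with a single gene symbol and was dropped. Of the 38, 32 mark vessels or lymphatics and 6 are ligands.

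RNA from 24 samples was hybridised to Affymetrix Mouse430A_2 arrays, which read each transcript through short probes. By the tissue label, 6 samples were pooled normal thyroids, 4 were papillary cancers (PTC, in which the tumour cells stay differentiated), 5 were anaplastic cancers (ATC, in which they do not) and 9 were recurrent tumours. The study concerns regrowth after the kinase BRAF is inactivated, and the receptor Met with its ligand Hgf. The labels call the source various mouse models at baseline, and genotype, age, the transgenes behind the tumours and the treatment before recurrence are not stated in any source used here. Among the pools, 4 carry WT in their titles and 2 (pools 5 and 6) carry Cre. Whether each tumour is from its own animal is not labelled, so the p-values below reflect the spread of these samples, some of which may be technical.

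Endothelial cells line vessels and receive VEGF ligands through the receptor tyrosine kinases Kdr, Flt1 and Flt4. Kdr carries most of the growth signal for blood vessels, Flt1 binds Vegfa, Vegfb and Pgf, and Flt4 is the receptor of Vegfc in lymphatic endothelium. Angiopoietins act on the receptor Tek, where Angpt1 keeps vessels quiescent and Angpt2 can oppose it. The thyroid is richly supplied with fenestrated capillaries, and its follicular cells make Vegfa.

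Values are log2 intensities, so a difference of 1 is a 2-fold change. A gene was called where limma's moderated test, fitted to all 24 arrays with 4 group means, gave a Benjamini-Hochberg adjusted p under 0.05 over 12394 genes. That test takes 1 spread per gene from all 24 arrays, so the spread of recurrent tumours also enters comparisons without them. Over all genes the SD averaged 0.67 in recurrent tumours, 0.24 in the pools, 0.19 in PTC and 0.35 in ATC. A difference not called, or a call lost, may therefore rest on spread outside the 2 groups compared. Of the 38 members, 22 were called in at least 1 of the 5 comparisons made and 16 in none. The same share was not computed over all genes, so the 22 cannot be set against a background. Single comparisons called 4.32% to 34.3% of all genes. The members called in none were Angpt1, Bmx, Cd34, Cdh5, Cldn5, Eng, Erg, Gja5, Pdpn, Pecam1, Prox1, Ramp2, Sox18, Tie1, Vegfc and Vwf. In bulk tissue, fewer endothelial cells and less RNA per endothelial cell cannot be told apart. The same 6 pools serve as controls in all 3 comparisons with normal glands. Each pool averages over glands, and no tumour is labelled as a pool. The spread and range of the pools may therefore be narrower than those of single glands.

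The samples differed in other tissue too. The mean of 7 thyroid follicular genes was 10.39 to 10.97 in the pools, 8.34 to 9.17 in PTC, 5.23 to 8.10 in ATC and 4.95 to 8.55 in recurrent tumours. ATC 4 and recurrent 1 and 4 still read thyroglobulin (Tg), the hormone precursor of follicular cells, at 13.48, 11.31 and 14.18, whereas the other ATC and recurrent arrays read it at 5.98 or less. The mean of 9 adipocyte genes was 8.43 to 10.99 in the pools, 7.41 to 8.17 in PTC, 6.51 to 7.48 in ATC and 6.50 to 9.20 in recurrent tumours. Macrophage genes (9) ran from 7.86 to 9.40 in the pools, 8.87 to 9.91 in PTC, 10.25 to 10.71 in ATC and 7.14 to 11.05 in recurrent tumours. The difference between the 3′ and 5′ Gapdh probe sets, a measure of RNA quality that grows with degradation, was 0.64 to 0.98 in the pools, 1.11 to 1.60 in PTC, and 0.15 or less on the 3 ATC arrays titled with a bare number against 0.82 to 0.96 on the 2 with JK in the title. Recurrent arrays read 0.36 to 1.07 with JK in the title and 0.17 or less with a bare number.

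RefSeq promoter windows (assembly GRCm38.p6) were found for 24 of the 38 members. The 250 bases upstream of the start are shown 5′ to 3′ for 5 genes on which the results turn: Kdr, Flt1 and Emcn, which were lower together in PTC and in recurrent tumours, Dll4, which moved the other way in ATC, and the ligand Vegfb. Capitals mark matches on either strand to the core of ETS-factor motifs (AGGAAG) or to the core of the hypoxia response motif (ACGTG or GCGTG). The windows are Kdr chr5:75978456-75978705 on the minus strand, Flt1 chr5:147726012-147726261 on the minus strand, Emcn chr3:137340828-137341077 on the plus strand, Dll4 chr2:119325534-119325783 on the plus strand and Vegfb chr19:6987652-6987901 on the minus strand.
Kdr: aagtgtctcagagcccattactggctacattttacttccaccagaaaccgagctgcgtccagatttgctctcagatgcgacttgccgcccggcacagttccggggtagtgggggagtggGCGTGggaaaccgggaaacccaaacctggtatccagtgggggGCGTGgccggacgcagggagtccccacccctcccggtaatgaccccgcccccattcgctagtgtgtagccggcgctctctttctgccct
Flt1: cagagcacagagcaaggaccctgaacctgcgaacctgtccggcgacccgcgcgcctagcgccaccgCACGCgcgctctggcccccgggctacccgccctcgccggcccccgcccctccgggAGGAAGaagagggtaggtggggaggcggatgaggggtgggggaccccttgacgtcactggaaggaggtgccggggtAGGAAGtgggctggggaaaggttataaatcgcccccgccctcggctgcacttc
Emcn: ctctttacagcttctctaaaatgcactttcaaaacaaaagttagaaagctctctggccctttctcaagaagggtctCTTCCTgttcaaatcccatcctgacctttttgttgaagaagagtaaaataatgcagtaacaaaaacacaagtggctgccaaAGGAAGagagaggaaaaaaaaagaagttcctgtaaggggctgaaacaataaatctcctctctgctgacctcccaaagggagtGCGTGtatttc
Dll4: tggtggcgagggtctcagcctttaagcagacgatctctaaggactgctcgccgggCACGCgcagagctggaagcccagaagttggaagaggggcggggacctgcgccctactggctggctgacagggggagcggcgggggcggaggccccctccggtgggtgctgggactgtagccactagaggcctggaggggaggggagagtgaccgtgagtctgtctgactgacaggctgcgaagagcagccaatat
Vegfb: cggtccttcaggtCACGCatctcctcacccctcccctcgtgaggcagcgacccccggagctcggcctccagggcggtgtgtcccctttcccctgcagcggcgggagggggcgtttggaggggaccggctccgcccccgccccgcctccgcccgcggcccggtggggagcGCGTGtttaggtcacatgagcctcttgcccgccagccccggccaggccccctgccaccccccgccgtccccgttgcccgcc

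The ETS core stood 2 times in each of the Flt1 and Emcn windows and was not found in those of Kdr, Dll4 and Vegfb. The hypoxia core stood 2 times in the Kdr and Vegfb windows and 1 time in those of Flt1, Emcn and Dll4. Over all promoters, 29.5% of 32851 windows held the ETS core and 38.6% the hypoxia core. Among windows of vessel and lymphatic members the shares were 44.0% (11 of 25) and 36.0% (9 of 25), and among ligand windows 0 of 6 held the ETS core and 3 of 6 the hypoxia core. A match describes these letters and is not a measured binding site.

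**Figure D1:**
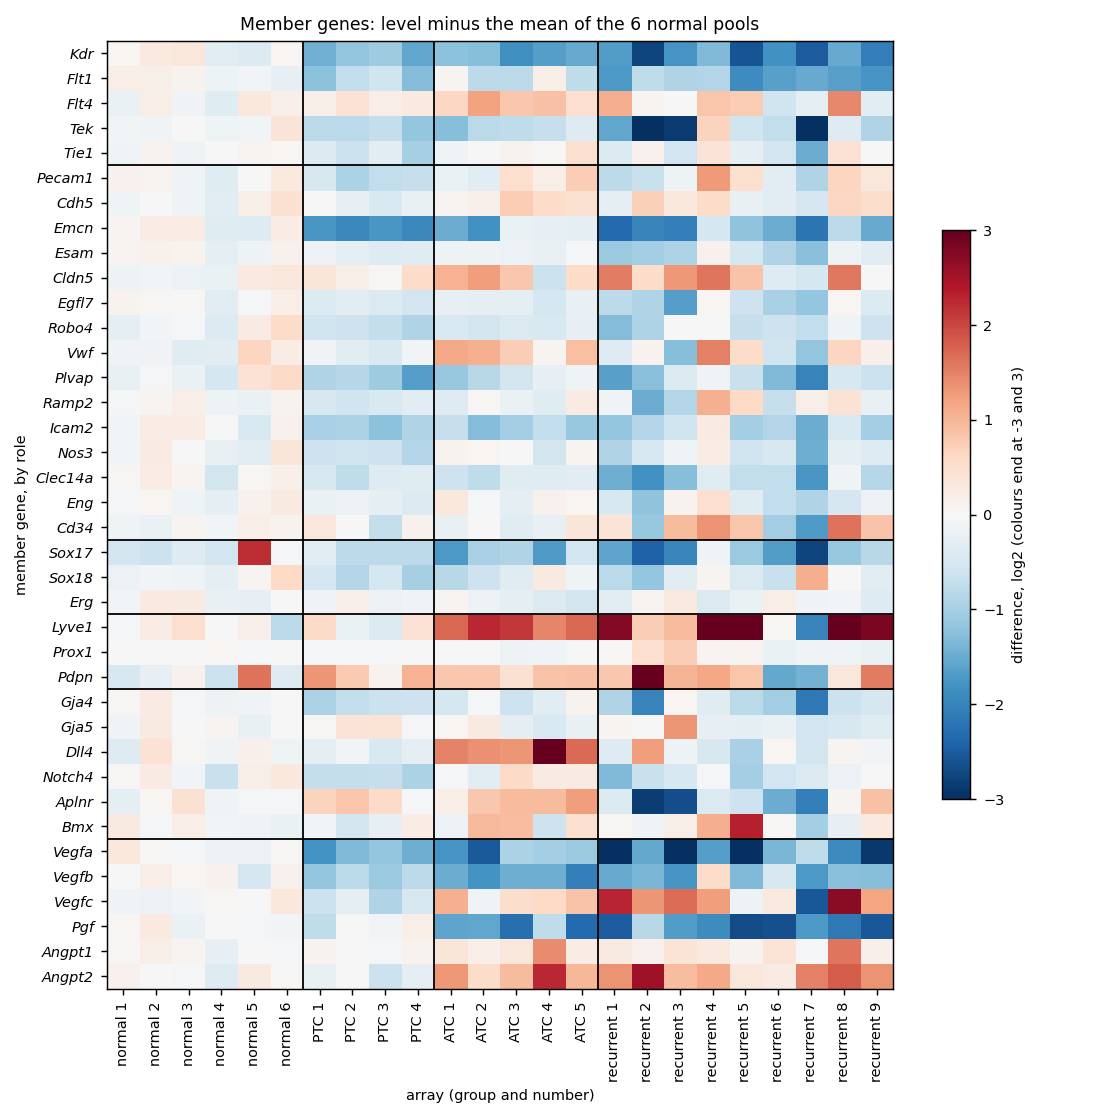
Heat map of the 38 members (rows, ordered by role) on the 24 arrays (columns, ordered by group), coloured by the log2 level minus the mean of the 6 normal pools. PTC columns are lower for most receptors and surface genes, ATC columns are higher for Dll4, Flt4, Angpt2 and Lyve1, and recurrent columns differ from each other.

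Papillary tumours had lower levels of 8 vessel genes and 1 ligand than normal glands, and no member was called higher. In PTC against normal, 14.2% of all genes were called, 6.16% higher and 8.03% lower. Of the members, 0 were called higher by limma (0 also at an unadjusted p under 0.05) and 9 lower, which is 23.7% of 38. The 9 were the receptors Kdr and Flt1, the Notch receptor Notch4, the surface and junction genes Emcn, Icam2, Plvap, Robo4 and Nos3, and the ligand Vegfb. The median difference was -0.45 over the 32 vessel and lymphatic members and -0.43 over the 6 ligands, against -0.0098 over all genes. Every PTC array lay below every pool for 18 of the 38 members, and the same held for 19.7% of all genes.

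Kdr, the main signalling receptor for Vegfa, read 9.65, 10.12 and 10.39 (lowest, median and highest) in the pools and 8.61, 8.88, 9.0 and 8.5 in the 4 PTC. Its groups did not overlap, and it was 2.47-fold lower in PTC (log2 difference -1.31, SE 0.245, limma adjusted p 0.00082). Flt1, which binds Vegfa, Vegfb and Pgf, read 9.39, 9.64 and 9.82 in the pools and 8.39, 8.88, 9.02 and 8.32 in PTC, again with no overlap. The difference was -0.98 (limma adjusted p 0.00925). The other Flt1 probe sets did not move alike, with differences of -1.31 and -0.22.

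Emcn (endomucin), a sialomucin of capillary and venous endothelium, showed the largest decrease of any member in PTC. It read 9.65 to 10.28 in the pools and 8.30, 8.11, 8.29 and 8.11 in PTC, a 3.60-fold difference (limma adjusted p 0.000767). The 4 PTC arrays lay close together. Icam2, an adhesion molecule of resting endothelium, read 7.66 to 8.35 in the pools and 7.16, 7.17, 6.90 and 7.23 in PTC (difference -1.01, limma adjusted p 0.00478). Plvap, which forms the diaphragms of fenestrated capillaries, fell by 1.12 on the log2 scale from a pool mean of 10.50 ± 0.42 (SD, n = 6), with limma adjusted p 0.0198. Robo4, a guidance receptor of endothelium, fell by 0.71, Nos3, the endothelial nitric oxide synthase, fell by 0.68, and Notch4 fell by 0.77.

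Kdr, Flt1, Emcn and Icam2 remained called in PTC when any single array was left out. The other 5 lost their call without particular arrays. Plvap was lost without PTC 4 (difference -0.95, limma adjusted p 0.0898). Robo4 was lost without pool 5, pool 6 or any PTC array (differences -0.74 to -0.60, limma adjusted p 0.0537 to 0.100), and Notch4 without pool 1, 2, 5 or 6 or any PTC array (-0.80 to -0.71, 0.0506 to 0.0943). Nos3 was lost without any array except pool 5 (-0.73 to -0.61, 0.0533 to 0.139). Vegfb was lost without any array except pool 5 (-1.03 to -0.90, 0.0652 to 0.113). A second, dim Notch4 probe set differed by 0.09 in PTC, and the mean of the Notch4 probe sets by -0.34, which was not called (limma adjusted p 0.181). The count of 9 became 4 without PTC 4 and 5 without PTC 1, 2 or 3 or without pool 6. With title kind as a block it was 6, and against the 4 WT-titled pools alone it was 4.

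Other genes common to blood endothelium were not called. Cdh5, the cadherin of endothelial junctions, read 7.67 to 8.46 in the pools and 7.99, 7.77, 7.55 and 7.78 in PTC, and the groups overlapped (difference -0.24, 95% interval -0.72 to 0.24, limma adjusted p 0.597). Pecam1, a junction molecule also found on platelets and leukocytes, read 7.52 to 8.18 in the pools and 7.41, 6.94, 7.16 and 7.20 in PTC. Its groups did not overlap, but the difference of -0.71 was not called (limma adjusted p 0.169). The Pecam1 SD was 0.23 in the pools and 0.19 in PTC, and the 0.74 of recurrent tumours also enters this test. Cd34, a sialomucin that fibroblasts and progenitors also carry, differed by -0.06 (95% interval -1.08 to 0.97).

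The adipocyte genes, whose tissue is itself vascular, moved with these decreases: 5 of 9 were called lower in PTC, and 0 higher by limma (0 at an unadjusted p under 0.05). The Gapdh 3′ to 5′ difference was higher in all 4 PTC than in any pool. The part of adipose tissue and of the Gapdh difference in the vessel gene decreases was not tested. Of the 12 mural genes (pericytes and smooth muscle, the cells around vessels), 1 was called lower in PTC and 0 higher (0 at an unadjusted p under 0.05 in limma), with list means of 8.30 to 8.67 in PTC and 8.42 to 8.88 in the pools.

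**Figure D2:**
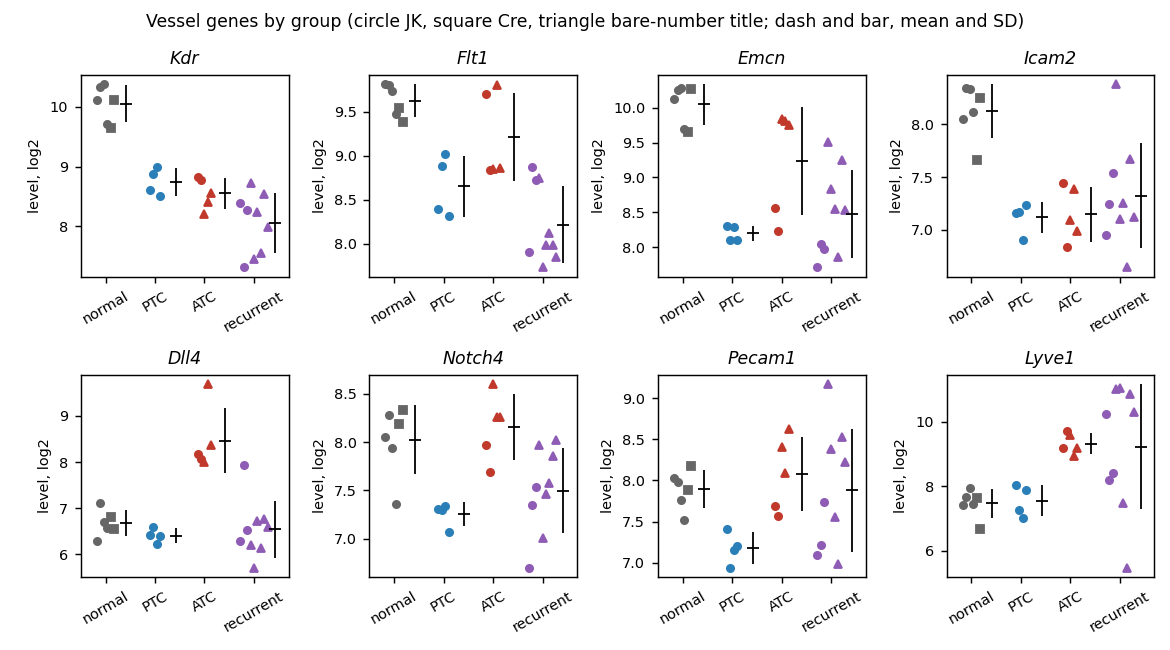
Log2 level of 8 vessel and lymphatic genes on each array, by group, with the group mean (dash) and SD (bar), and circles for JK, squares for Cre and triangles for bare-number titles. Kdr and Emcn lie lower in all 4 PTC than in any of the 6 pools, Dll4 lies higher in all 5 ATC, and Lyve1 spans from 5.47 to 11.05 in recurrent tumours.

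Anaplastic tumours had members called in both directions against normal glands. In ATC against normal, 34.3% of all genes were called, 15.1% higher and 19.1% lower. Of the 38 members 3 were called higher (7.89%) and 5 lower (13.2%), shares below those of all genes. The median difference was -0.11 over the 32 vessel and lymphatic members and -0.48 over the 6 ligands. Higher were Dll4, Flt4 and Angpt2. Lower were Kdr, Icam2, Pgf, Vegfa and Vegfb. With the 2 groups alone, 7 members were called higher and 10 lower, where 22.8% and 28.2% of all genes were called. The number of calls therefore does not show how far the other members differed.

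Dll4, the Notch ligand of arterial and sprouting tip cells, read 6.30, 6.64 and 7.11 (lowest, median and highest) in the pools, 6.42, 6.60, 6.22 and 6.39 in PTC, and 8.17, 8.06, 8.0, 9.69 and 8.37 in ATC. All 5 ATC lay above all pools and all PTC, and ATC 4 was the highest. The difference was 1.78 against normal (3.43-fold, SE 0.307, limma adjusted p 0.00011). The other Dll4 probe set gave 1.70. Dll4 stayed called here in all 21 alternatives, with differences of 1.44 to 1.89.

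Kdr read 8.82, 8.77, 8.21, 8.40 and 8.55 in ATC, below every pool, and was 2.84-fold lower (limma adjusted p 3.09e-05). Icam2 read 7.44, 6.83, 7.09, 7.39 and 6.99, also below every pool (difference -0.98, limma adjusted p 0.00143). Flt1 was not called (difference -0.42, 95% interval -0.90 to 0.07). Its ATC values of 9.70, 8.84, 8.85, 9.81 and 8.86 overlapped with the pools through ATC 1 and 4. Its probe sets did not move alike, with differences of -1.08 and 0.43 for the other pair. Flt4, the receptor for Vegfc, read 7.21 to 7.89 in the pools and 8.21, 8.79, 8.38, 8.45 and 8.09 in ATC. It was called higher by 0.80 (limma adjusted p 0.0334), but a dimmer probe set differed by -0.14. The call was lost without pool 1, 3 or 4 or ATC 2, 3 or 4 (limma adjusted p 0.0568 to 0.0848).

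Several pan-endothelial genes had ATC levels near those of normal glands. Pecam1 differed by 0.18 (95% interval -0.46 to 0.83), Cdh5 by 0.40 (-0.05 to 0.85), Eng, a TGF-beta coreceptor of endothelium, by 0.03 (-0.41 to 0.48) and Nos3 by -0.06 (-0.50 to 0.38). The intervals still allow modest changes, so the levels are not shown to be equal. Vwf, the clotting glycoprotein stored in endothelium and platelets, differed by 0.78 (limma adjusted p 0.109), beside platelet gene means of 7.20 to 7.46 in the pools and 6.97 to 8.44 in ATC.

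Emcn in ATC divided by array title. The 2 arrays with JK in the title read 8.56 and 8.23, and the 3 titled with a bare number read 9.84, 9.81 and 9.75, against 9.65 to 10.28 in the pools. Over all 5 the difference from normal was -0.81 and was not called (limma adjusted p 0.0562). Among JK titles alone it was -1.70 (limma adjusted p 5.24e-05), and with title kind as a block -1.49 (0.000388). The bare-number ATC arrays were also those with the low Gapdh 3′ to 5′ difference, and title, RNA quality and tumour cannot be told apart on 5 arrays.

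**Figure D3:**
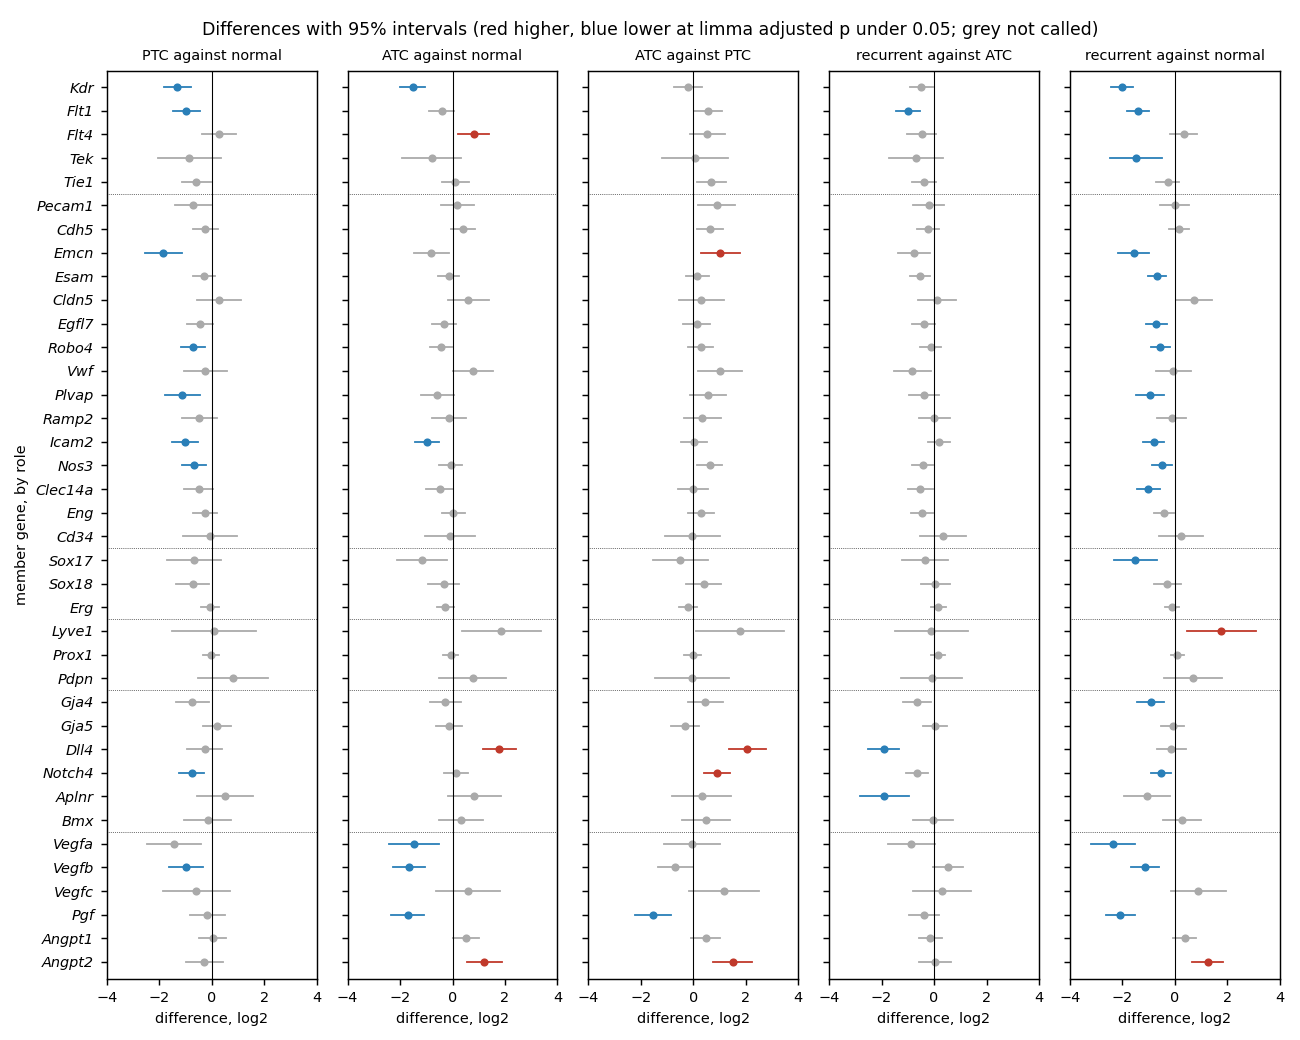
Log2 difference with 95% interval for each of the 38 members in each comparison, in red (higher) or blue (lower) where called by limma at an adjusted p under 0.05 and in grey otherwise. Kdr lies below 0 in all 3 comparisons with normal pools, and Dll4 lies above 0 in ATC and returns to -0.14 in recurrent tumours.

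Between the 2 tumour types, 25 of the 32 vessel and lymphatic members had a higher mean in ATC than in PTC, with a median difference of 0.32 against -0.057 over all genes. In ATC against PTC, 17.2% of all genes were called, 7.81% higher and 9.35% lower. Of the members 4 were called higher (Dll4, Notch4, Emcn and Angpt2) and 1 lower (Pgf). Every ATC lay above every PTC for 14 of the 38 members, against 15% of all genes.

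Dll4 was 4.15-fold higher in ATC than in PTC (difference 2.05, limma adjusted p 0.000216), and this held in all 18 alternatives. Notch4, a Notch receptor largely restricted to endothelium, read 7.31, 7.30, 7.34 and 7.07 in PTC and 7.97, 7.69, 8.6, 8.26 and 8.26 in ATC, with no overlap. Its difference of 0.90 was called (limma adjusted p 0.0129). Within JK titles, where 2 ATC meet 4 PTC, it was 0.57 and not called (limma adjusted p 0.178), and with title kind as a block 0.61 (0.0855). A second, dim Notch4 probe set differed by -0.29. Emcn was called by a small margin (1.04, limma adjusted p 0.0481). Its difference was 0.19 within JK titles (limma adjusted p 0.573) and 0.40 with the block (0.360), and the call was lost without any single PTC array or without ATC 3, 4 or 5 (0.0778 to 0.126). Pecam1 (0.90), Vwf (1.03), Cdh5 (0.64), Nos3 (0.62) and the receptor Tie1 (0.69) had no overlap between the 2 tumour types and were not called, with limma adjusted p of 0.0715 to 0.0894.

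Some of the mural genes were also higher. Of 12, 4 (33.3%) were called higher in ATC against PTC and 4 in ATC against normal. The shares of all genes called higher were 7.81% and 15.1%. The mural list means were 9.03 to 10.04 in ATC. Against normal, 8 of the 12 had a positive difference, and the range ran from -1.29 (Myh11, the myosin of smooth muscle) to 2.24 (Tagln, an actin-binding protein of smooth muscle and myofibroblasts). Their part in the vessel gene differences was not tested.

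Of the 6 ligands, 3 fell in ATC against normal (Vegfa, Vegfb and Pgf, 50%) and 1 rose (Angpt2, 16.7%). Of all genes, 19.1% were called lower and 15.1% higher. All 7 thyroid follicular genes and 7 of 9 adipocyte genes were also called lower in ATC against normal. The part of these tissues in the ligand levels was not tested. Vegfa, the principal angiogenic factor, read 11.30, 11.46 and 11.78 (lowest, median and highest) in the pools, 9.67, 10.14, 10.30 and 10.01 in PTC and 9.70, 8.95, 10.52, 10.45 and 10.34 in ATC. Every tumour of both types lay below every pool. The ATC difference was -1.47 (2.77-fold lower, limma adjusted p 0.0173), and without ATC 2 it was -1.21 and no longer called (0.0592). The PTC difference of -1.43 was not called (limma adjusted p 0.0572), though it was with title kind as a block (0.0382) and among JK titles alone (-1.47, adjusted p 0.0333). The other Vegfa probe set gave -0.84 in PTC and -0.52 in ATC.

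Vegfb, a ligand of Flt1, read 8.19 to 8.90 in the pools, 7.53, 7.89, 7.59 and 7.92 in PTC, and 7.21, 6.91, 7.24, 7.24 and 6.65 in ATC, with no overlap between any 2 of these groups. It was 3.14-fold lower in ATC than in the pools (limma adjusted p 0.000166) and 1.96-fold lower in PTC (0.0405). Pgf (placental growth factor), another ligand of Flt1, separated the tumour types. It read 9.30 to 9.80 in the pools, 8.74, 9.52, 9.43 and 9.67 in PTC, and 7.92, 7.94, 7.24, 8.75 and 7.16 in ATC. The PTC difference from normal was -0.16 and was not called (95% interval -0.83 to 0.50). That interval uses the spread of all groups, recurrent tumours included, and not that of PTC and the pools alone. ATC was 3.26-fold below normal (limma adjusted p 0.000148) and 2.91-fold below PTC (0.00259).

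Angpt2, made by endothelial cells themselves when vessels remodel, read 5.87 to 6.52 in the pools, 6.04, 6.26, 5.60 and 5.98 in PTC, and 7.56, 6.81, 7.21, 8.51 and 7.26 in ATC. All ATC lay above all pools and all PTC. The differences were 1.22 against normal (2.32-fold, limma adjusted p 0.00546) and 1.5 against PTC (0.00563). Within JK titles they were 1.00 (limma adjusted p 0.0639) and 1.21 (0.0502), and with title kind as a block 1.39 (0.0141) and 1.59 (0.0127). All 4 group means of Angpt2 lie below 7.5, near the median of all values.

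Vegfc, the lymphatic growth factor, read 6.79 to 7.29 in the pools, 6.31, 6.68, 6.05 and 6.48 in PTC, and 8.04, 6.85, 7.50, 7.57 and 7.83 in ATC. Every ATC was above every PTC, and the difference of 1.18 was not called (limma adjusted p 0.228). Angpt1, a product of mural cells, read 3.98 to 4.40 in the pools and 4.18 to 4.33 in PTC. In ATC it read 4.58, 4.42, 4.57, 5.65 and 4.45, and the difference of 0.51 from normal was not called (limma adjusted p 0.0969). These levels are dim on the array.

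**Figure D4:**
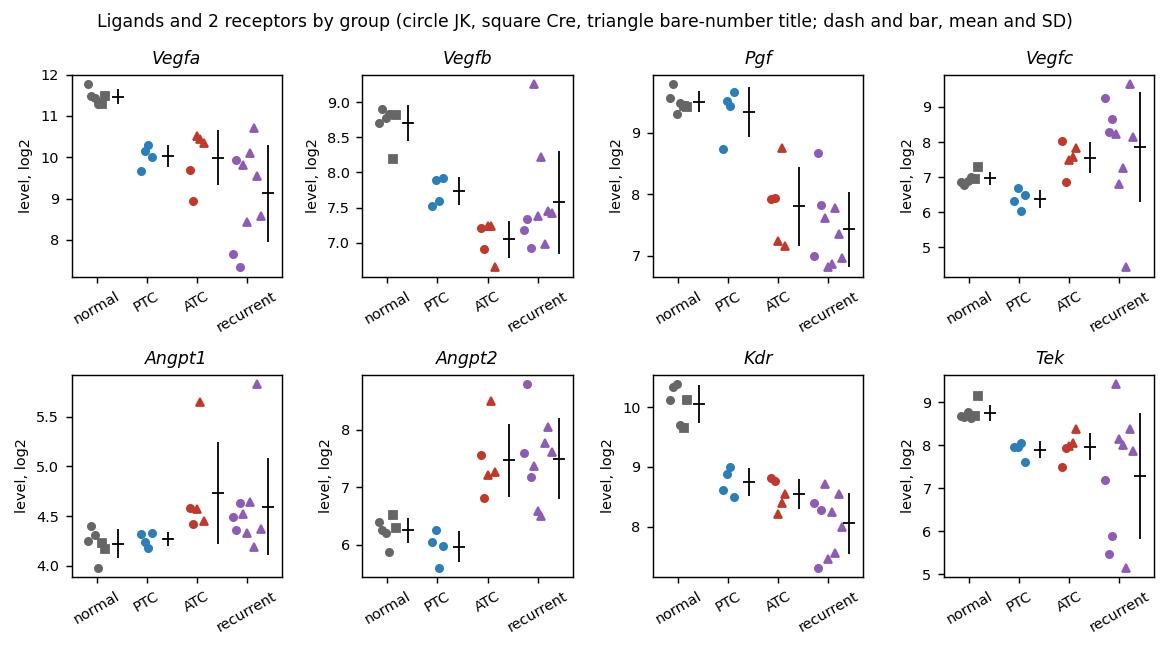
Log2 level of the 6 ligands and the receptors Kdr and Tek on each array, by group, with the group mean (dash) and SD (bar), and circles for JK, squares for Cre and triangles for bare-number titles. Vegfa, Vegfb and Pgf lie lower in ATC than in every pool, while Angpt2 lies higher in all 5 ATC than in any pool or PTC.

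Recurrent tumours had lower levels of a small set of vessel genes than ATC. In recurrent against ATC, 4.32% of all genes were called, 1.19% higher and 3.12% lower. Of the members 0 were called higher by limma (0 at an unadjusted p under 0.05) and 3 lower, namely Dll4, Flt1 and Aplnr (7.89%). The median difference was -0.37 over the vessel and lymphatic members and 0.05 over all genes. Without recurrent 4 the count of lower members was 6. Of the 12 mural genes, 3 were called lower in recurrent tumours than in ATC and 0 higher by limma (0 at an unadjusted p under 0.05), with a median difference of -0.67. Of the 9 macrophage genes, 0 were called by limma (2 were lower at an unadjusted p under 0.05), and all 9 differences were negative, with a median of -1.0. The part of these cells in the vessel gene differences was not tested.

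The mean of Dll4 in recurrent tumours was near that of normal glands. Its values were 5.71, 6.53 and 7.93 (lowest, median and highest), all below the 5 ATC, and recurrent 2 was the highest. The difference from ATC was -1.92 (3.78-fold lower, limma adjusted p 0.000207), and that from normal was -0.14 (95% interval -0.69 to 0.42). Within JK titles the difference from ATC was -1.20 (limma adjusted p 0.0871) and among bare-number titles -2.33 (0.0865). The second probe set gave -1.82. Flt1 read 7.73, 7.99 and 8.87 in recurrent tumours (difference from ATC -1.0, limma adjusted p 0.00784). The recurrent range met the lowest ATC values of 8.84 to 8.86 through recurrent 2. Within JK titles the Flt1 difference was -0.77 (limma adjusted p 0.184) and among bare-number titles -1.10 (0.251).

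Aplnr, the apelin receptor of sprouting and venous endothelium, read 10.15, 10.76, 10.89, 10.89 and 11.21 in ATC and 7.11, 9.32 and 10.82 in recurrent tumours. Recurrent 9 lay within the ATC range, and recurrent 2, 3 and 7 lay lowest at 7.11, 7.28 and 7.90. The difference of -1.90 was called (limma adjusted p 0.016), and without ATC 5 it was -1.79 and not called (0.0559). The other Aplnr probe set gave -0.91. Recurrent 2, 3 and 7 were also left out together, a choice made after seeing the values. The Aplnr difference from ATC was then -1.17 (0.0148 in limma, adjusted). Leaving out the lowest values was bound to shrink the difference and can also narrow the spread. Calls over all genes rose from 535 to 1380, so the Aplnr call without these arrays lends no separate support. Within JK titles the Aplnr difference was -2.48 (limma adjusted p 0.0252), and among bare-number titles it was -1.66 and not called (0.413).

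Against normal glands, recurrent tumours had the longest list of lower members in the fit to all 24 arrays. That order depended on the fit. With the 2 groups alone 13 members were lower here and 20 in PTC, and with array weights 16 and 19. In recurrent against normal, 33.8% of all genes were called, 14.5% higher and 19.3% lower. Of the 38 members 17 were called lower (44.7%) and 2 higher (5.26%). Lower were 3 of 5 receptors, 8 of 15 pan-endothelial genes, 1 of 3 transcription factors, 2 of 6 arterial, capillary and tip cell genes and 3 of 6 ligands. Angpt2 and Lyve1 were higher. Of the 9 adipocyte genes, 8 were called lower here and 7 in ATC against normal, and of the 12 mural genes 4 were called lower here and 1 higher. The part of either list in the vessel gene differences was not tested. The median difference was -0.35 over the vessel and lymphatic members and -0.035 over all genes.

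Kdr had the largest difference of the receptors, with 7.31, 8.24 and 8.72 (lowest, median and highest) in recurrent tumours, all 9 below every pool. It was 4.0-fold lower (difference -2.0, SE 0.200, limma adjusted p 1.2e-07). Flt1 was lower in all 9 as well (-1.42, limma adjusted p 1.41e-05). Its other probe sets gave -2.05 and -0.17. Tek, the angiopoietin receptor, read 8.63 to 9.14 in the pools and 5.15, 7.86 and 9.43 in recurrent tumours, so the groups overlapped through recurrent 4. Its difference was -1.48 (limma adjusted p 0.0188). Recurrent 2, 3 and 7 held the 3 lowest Tek values (5.46, 5.88 and 5.15), and without these 3 the difference was -0.59 and not called (limma adjusted p 0.0651). These arrays were left out after seeing the values, so a smaller Tek difference was bound to follow. The same 3 arrays had the lowest means over 5 skeletal muscle genes, 5.58, 5.94 and 7.52, against 10.88 to 14.39 on the other 6 recurrent arrays, with the top value on recurrent 4, and 9.85 to 12.65 in the pools. The part of skeletal muscle in the Tek, Aplnr and other vessel gene levels of these arrays was not tested.

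Emcn read 7.71, 8.54 and 9.51 in recurrent tumours, below every pool (-1.57, limma adjusted p 0.000165). Clec14a, an adhesion lectin of endothelium, read 5.86, 6.83 and 7.58 against 7.12 to 7.90 in the pools (-1.01, limma adjusted p 0.000998), with recurrent 4 and 8 inside the pool range. Icam2 was 1.75-fold lower (limma adjusted p 0.00232), Plvap 1.93-fold lower (0.00695), Egfl7, a secreted endothelial protein, 1.64-fold lower (0.00628) and Esam, a junction adhesion molecule, 1.60-fold lower (0.00351). Robo4 and Nos3 were lower by 1.48-fold and 1.41-fold. Plvap was not called against the WT-titled pools alone (-0.70, limma adjusted p 0.0793), nor Robo4 without pool 6 (-0.45, 0.0595). Robo4 was called in 21 of 26 alternatives and was also lost against the WT-titled pools (-0.36, limma adjusted p 0.167), with title kind as a block (-0.50, 0.0782), within JK titles (-0.54, 0.0982) and with the 2 groups alone (-0.56, 0.0636). Nos3 was lost without pool 1, 2, 3 or 6 or without recurrent 1, 2, 5, 7 or 9 (limma adjusted p 0.0507 to 0.109). Pecam1 (-0.01, 95% interval -0.57 to 0.55) and Cdh5 (0.16, -0.23 to 0.56) were not called and lay near their normal means. Some members gained a call without 1 array: Eng without recurrent 3 or 4 (-0.48 and -0.53, limma adjusted p 0.0429 and 0.0128), the junction protein Cldn5 without recurrent 6 or 7 (0.87 and 0.89, 0.0334 and 0.0294) and Aplnr without recurrent 1, 4, 8 or 9 (-1.31 to -1.14, 0.0109 to 0.0484).

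Sox17, a transcription factor of arterial endothelium, fell by 1.5 on the log2 scale (limma adjusted p 0.00559). Its pool values were 7.50, 7.41, 7.67, 7.48, 10.28 and 7.99, so pool 5 raised the normal mean. It stayed called in all 26 alternatives, leaving out pool 5 among them, and the smallest difference was -0.91. The other Sox17 probe set, taken by itself, gave -0.49. Sox18 and Erg were called in no comparison. Gja4 (a connexin of arterial endothelium) fell by 0.93 (limma adjusted p 0.00621). Notch4 was lower by 0.53 (limma adjusted p 0.0373). Its call was lost without pool 1, 2, 3, 5 or 6 or without recurrent 1, 2 or 5 (0.0529 to 0.0922). Against the WT-titled pools alone it was -0.41 and not called (0.187), and the other Notch4 probe set gave -0.18.

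Lyve1, a hyaluronan receptor of lymphatic endothelium that tissue macrophages also express, had the widest spread among recurrent tumours of the called vessel and lymphatic genes (SD 1.95, n = 9). It read 6.66, 7.54 and 7.95 (lowest, median and highest) in the pools, 9.19, 9.73, 9.59, 8.94 and 9.18 in ATC and 5.47, 10.23 and 11.05 in recurrent tumours. Above every pool lay 7 of the recurrent arrays, while recurrent 6 was inside their range at 7.49 and recurrent 7 was below it. The difference from normal was 1.76 in recurrent tumours (limma adjusted p 0.0352) and 1.86 in ATC, where it was not called (0.0518). The recurrent call was lost without pool 1, 2, 4 or 6 or without recurrent 1, 4, 5, 8 or 9 (0.0526 to 0.0809), and with title kind as a block it was 1.48 (0.221). Prox1, the defining transcription factor of lymphatic endothelium, read between 3.21 and 4.16 on all arrays, near the bottom of the array's range. The mean of the 9 macrophage genes was 7.14, 7.88 and 8.67 on recurrent 6, 2 and 7 and 9.90 to 11.05 on the other 6 recurrent arrays. Recurrent 2, with a macrophage mean of 7.88, read Lyve1 at 8.20, above every pool. Of these genes, 7 were called higher in ATC against normal and 3 in recurrent against normal. Their part in the Lyve1 level was not tested. Pdpn, shared by lymphatic endothelium and fibroblasts, ran from 7.61 to 12.57 in recurrent tumours and was not called.

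Among the 6 ligands, Vegfa, Vegfb and Pgf were lower in recurrent tumours than in normal glands (50%) and Angpt2 was higher (16.7%). Of all genes, 19.3% were called lower and 14.5% higher. All 7 thyroid follicular genes and 8 of 9 adipocyte genes were also called lower here, and their part in the ligand levels was not tested. Vegfa read 7.33, 9.55 and 10.71 (lowest, median and highest) in recurrent tumours, below every pool, and was 5.07-fold lower (limma adjusted p 0.000122, log2 difference -2.34). The other Vegfa probe set gave -1.05. Pgf read 6.81, 7.36 and 8.67, also below every pool, and was 4.21-fold lower (2.95e-06 in limma, adjusted). Vegfb read 6.93, 7.38 and 9.26 (2.18-fold lower, limma adjusted p 0.00165). Recurrent 4 stood above every pool for Vegfb, and recurrent 6 at 8.22 stood inside their range. Angpt2 read 6.51, 7.59 and 8.80 (2.37-fold higher, limma adjusted p 0.00151), with recurrent 6 alone inside the pool range.

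Vegfc read 4.43, 8.22 and 9.66 in recurrent tumours (difference from normal 0.90, limma adjusted p 0.185). Recurrent 7 held the lowest value, and without it the difference was 1.32 and called (limma adjusted p 0.00289). Angpt1 differed by 0.37 (limma adjusted p 0.170). Against ATC, 0 of 6 ligands were called by limma (0 at an unadjusted p under 0.05), and their differences ran from -0.87 (Vegfa) to 0.52 (Vegfb). All 4 of the called ligands of recurrent tumours against normal stayed called in every alternative run, with a highest limma adjusted p of 0.0126.

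Vessel genes and ligands were set side by side on each array as their mean difference from the normal pools. The 32 vessel and lymphatic members averaged -0.48 to -0.33 in PTC, -0.12 to 0.13 in ATC and -1.22 to 0.35 in recurrent tumours, with the pools between -0.26 and 0.13. The 6 ligands averaged -0.75 to -0.39 in PTC, -0.87 to 0.18 in ATC and -1.13 to 0.13 in recurrent tumours, with the pools between -0.11 and 0.09. All 4 PTC were thus below all pools in both means. All 5 ATC had a vessel mean inside the pool range. That vessel mean joins opposite genes, since 12, 10, 13, 15 and 6 of the 32 lay below all pools on ATC 1 to 5, and 6, 8, 11, 5 and 12 lay above them. Of the 5 ATC, 4 had a ligand mean below the pool range. That ligand mean joins opposite ligands, since Vegfa, Vegfb and Pgf lay below all pools on all 5 arrays and Angpt2 above them.

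Recurrent tumours differed most among themselves. Their SD averaged 0.74 over the vessel and lymphatic members, against 0.29 in the pools, 0.22 in PTC and 0.34 in ATC. Over all genes it was 0.67, 0.24, 0.19 and 0.35, so a wider spread was a feature of recurrent arrays as a whole. Recurrent 7 had the lowest vessel mean (-1.22), with 27 of 32 genes below all pools and 1 above. Recurrent 4 had the highest (0.35), with 8 below and 14 above. Recurrent 4 was also the array with thyroglobulin at 14.18, a mean of 10.91 over 3 parathyroid genes and 8.96 over 4 C-cell genes, where the pools read 9.87 to 10.94 and 9.66 to 11.41. Recurrent 5, with a parathyroid mean of 10.01, had a vessel mean of -0.21. Recurrent 8, with a vessel mean of 0.07, had a follicular mean of 5.16. The part of these tissues in the vessel means was not tested. Recurrent 2 had a low vessel mean (-0.70) beside a ligand mean of 0.05, and recurrent 5 had the lowest ligand mean (-1.13).

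**Figure D5:**
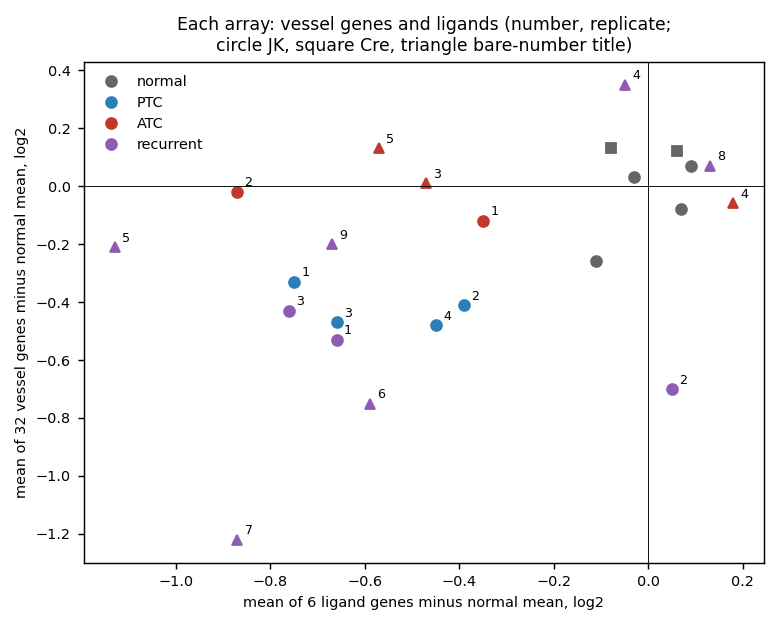
Mean log2 difference from the normal pools of the 32 vessel and lymphatic members (vertical axis) against that of the 6 ligands (horizontal axis), with 1 point per array coloured by group and shaped by title kind. PTC points lie low on both axes, ATC points lie within the pool range for vessel genes, and recurrent points spread from -1.22 to 0.35 along the vertical axis.

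Other genes of the same processes were read from separate lists. Beside their counts stand the shares of all genes called higher and lower. These were 6.16% and 8.03% in PTC against normal, 15.1% and 19.1% in ATC against normal, and 7.81% and 9.35% in ATC against PTC. They were 1.19% and 3.12% in recurrent against ATC, and 14.5% and 19.3% in recurrent against normal. Of 25 other endothelial genes, 6 were called lower in PTC against normal and 0 higher by limma (0 at an unadjusted p under 0.05). The largest decreases were those of Kit, a receptor also of mast and progenitor cells (-2.77), Podxl, a sialomucin (-1.74), and Adgrl4, an adhesion receptor of endothelium (-1.37). In ATC against normal 3 were higher and 6 lower, among them Tm4sf1, a membrane protein of endothelial and tumour cells (1.5). In ATC against PTC 4 were higher and 1 lower, with the flow-induced factor Klf2 at 0.97. In recurrent against ATC 2 were lower, and in recurrent against normal 2 were higher and 9 lower, led by the transcription factor Hhex, which follicular cells also express (-3.33), Kit (-2.79) and the prostaglandin transporter Slco2a1 (-2.21).

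Of 32 other angiogenic signalling genes, 9 were higher (28.1%) and 6 lower (18.8%) in ATC against normal. The shares of all genes were 15.1% and 19.1%, so the lower share was near that of all genes. Pdgfc, a growth factor for mesenchymal cells, was higher by 3.32, while Fgf1 fell by 3.7 and Esm1, a tip cell proteoglycan, fell by 2.89. In ATC against PTC 7 were higher and 3 lower, with Angptl4 (2.62), the netrin receptor Unc5b (2.06) and Sema3e (1.98) at the top. In recurrent against ATC 5 were lower and 0 higher by limma (2 at an unadjusted p under 0.05). The largest were Jag1, a Notch ligand (-2.37, limma adjusted p 0.00633), Sema3e (-1.54) and Heyl, a Notch target of mural cells (-1.5, 0.00252). In PTC against normal 2 were higher and 2 lower, and in recurrent against normal 8 and 8.

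Of 9 endogenous angiogenesis inhibitors, 4 were higher (44.4%) and 1 lower (11.1%) in PTC against normal. The counts were 4 (44.4%) and 2 (22.2%) in ATC against normal, and 2 and 2 (22.2% each) in recurrent against normal. In ATC against PTC 2 were higher. Thbs2, thrombospondin 2, which fibroblasts make, was higher by 2.47, 4.35 and 3.22 in these 3 comparisons. The fibroblast gene means were 10.07 to 10.64 in the pools, 10.55 to 11.76 in PTC, 11.60 to 12.52 in ATC and 9.97 to 12.61 in recurrent tumours. Of 16 hypoxia response genes, 2 were called lower in PTC against normal (12.5%, against 8.03% of all genes), Bnip3 (-1.82) and Hif1a (-1.52). In ATC against PTC 3 were higher and 1 lower. In ATC against normal 0 were called higher by limma (1 at an unadjusted p under 0.05) and 2 lower, Pfkfb3 (-1.47) and Hif1a (-0.94). In recurrent against normal 4 were higher, among them the oxygen sensor Egln3 (1.52), and 1 lower. Vegfa, itself a hypoxia target, was lower in both comparisons.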

How the data were processed

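Total RNA came from a spin kit, per the labels. The authors deposited log2 intensities for 22690 probe sets (2.71 to 14.96), from RMA in Partek per the submitters' processing notes, with versions not given in the sources used here. RMA aligns the arrays' distributions, so a shift of all genes one way would not show. Symbols came from the platform annotation (20393 probe sets with 1 symbol, 691 with several, 1606 with none), and 20364 were matched by gene identifier to RefSeq of GRCm38.p6. Groups came from the tissue label. limma 3.58.1 (R 4.3.3) fitted 4 group means to 24 arrays, with its moderated test adjusted over 12394 genes and called under 0.05; the step was tested on simulated data. Tables and plots used Python 3.11.15, pandas 2.3.3 and matplotlib 3.10.9. Per-array values are given for all ligands and for the called members with the largest differences in each role, and outside lists name at most 3 called genes per comparison. Members and lists were chosen with earlier results of these data known. Alternatives were the 2 groups alone, title kind as a block or JK titles alone, probe set means, dim genes left out (highest group mean under 7.5), renormalization, a trended spread, array weights, WT-titled pools and leaving out each array. The number of arrays limits the precision.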

Additional observations from a re-analysis of the deposited data

Results flagged for a closer look

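Among 152 sets of a member in a group of arrays, 16 held an array that stood apart from the rest of its group by Dixon's ratio, and chance gives about 1 in 20. Normal pool 5 stood apart for 3 members. It read Sox17 at 10.28 (next pool 7.99), Pdpn at 10.78 (9.27) and, as the lowest, Vegfb at 8.19 (8.70). Pool 6 was highest for Tek at 9.14 (8.77), and pool 4 lowest for Clec14a at 7.12 (7.72).

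ATC 4, the ATC array with thyroglobulin at 13.48, stood apart for 4 members. It was highest for Dll4 at 9.69 (next 8.37) and Angpt1 at 5.65 (4.58), and lowest for Nos3 at 7.15 (7.71) and Egfl7 at 8.81 (9.04). ATC 3 was lowest for Pdpn at 9.61 (9.96). Without ATC 4, Dll4 in ATC stayed called against normal and against PTC.

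PTC 4 was lowest for Nos3 at 6.83 (7.08) and Notch4 at 7.07 (7.30), and PTC 1 highest for Sox17 at 7.73 (7.27). Among recurrent tumours, array 2 was highest for Dll4 at 7.93 (6.77), array 3 for Gja5 at 6.03 (4.79) and array 8 for Angpt1 at 5.83 (4.64). Gja5 and Angpt1 are dim, with a mean below 7.5 in every group.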

How the results depend on the processing

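Over 4140 recomputed member differences, 0 changed sign after a call, 124 lost and 146 gained a call. Counts of called members moved more. In PTC against normal (0 higher, 9 lower) the 2 groups alone gave 1 and 20, array weights 1 and 19, and WT-titled pools 4 lower. In ATC against normal (3 higher, 5 lower) the 2 groups alone gave 7 and 10, array weights 10 and 10, and JK titles 5 and 8. In ATC against PTC (4 higher, 1 lower) the 2 groups alone gave 12 and 2, array weights 15 and 3, the title block 2 higher and JK titles 2 lower. In recurrent against ATC (0 higher, 3 lower) the 2 groups alone gave 1 lower, the title block 5 lower, JK titles 1 higher and 5 lower, and bare-number titles, chosen after seeing the data, 0 lower. In recurrent against normal (2 higher, 17 lower) higher members numbered 1 with the 2 groups alone, without dim genes or with WT-titled pools. They numbered 6 in JK titles, 8 with array weights and 4 without recurrent 2, 3 and 7, also chosen after seeing the data. Lower members numbered 13 with the 2 groups alone, 12 with WT-titled pools, 16 with array weights and 19 in JK titles. Shares of all genes called higher and lower moved too. With the 2 groups alone they were 21.3% and 24.5% in PTC against normal and 22.8% and 28.2% in ATC against normal. They were 17.4% and 19.6% in ATC against PTC and 10.7% and 14.7% in recurrent against normal. Array weights gave, in the same order, 24.5% and 26.9%, 25.9% and 33.5%, 23.1% and 27.9%, and 22.4% and 27.9%. In recurrent against ATC the 2 groups alone called 0.0565% and 0.742%. JK titles called fewer of all genes in ATC against normal (14.4% and 17.2%).

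Leaving out single arrays gave 0 to 0 higher and 4 to 7 lower in PTC against normal, 2 to 3 and 4 to 7 in ATC against normal, and 3 to 4 and 1 to 1 in ATC against PTC. It gave 0 to 0 and 2 to 6 in recurrent against ATC, and 1 to 4 and 14 to 19 in recurrent against normal. No paired analysis was possible because the labels number no replicates and the numbers used here only name samples. The cause of these shifts was not tested. JK titles alone leave 2 ATC and 3 recurrent arrays. Dim members (8 of 38) have compressed differences.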
